A study of Homo sapiens with 8 samples.

Results

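Collagen chain genes encode the polypeptides that wind together as trimers into collagen, the main structural protein of the extracellular matrix. They were taken as every row of the deposited table whose symbol is COL, a number, A and a number, which gave 44 of 19583 rows. The RNA came from MDA-MB-231, a human line from a triple-negative breast cancer, grown in DMEM with 10% FBS. The groups were cells labelled shCHD4 at 1% O2, cells labelled shSC at 1% O2, cells labelled shCHD4 at 20% O2 and cells labelled shSC at 20% O2, each kept at its O2 level for 24 h and each with 2 libraries of polyadenylated RNA. The shCHD4 label names a short hairpin RNA against CHD4, the ATPase of the nucleosome remodelling and deacetylase complex. The labels do not say what the shSC hairpin targets, whether a label stands for 1 clone or a pool, or whether paired libraries were grown apart. The p-values below therefore reflect only library-to-library spread, possibly technical.

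A collagen chain is a repeat of glycine followed by a pair of other residues, often proline and hydroxyproline. In the endoplasmic reticulum, prolyl and lysyl hydroxylases that consume molecular oxygen modify the chains before they fold, and lysyl oxidases crosslink the secreted molecules. Fibrillar collagens form cables, network collagens form sheets such as the basement membrane, and transmembrane collagens stay on the cell that makes them. Low oxygen is known to raise the modifying enzymes through the hypoxia-inducible factors, and breast cancer cells with a mesenchymal phenotype are known to secrete part of their own matrix.

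CHD4 itself was no lower under the shCHD4 label. Measured as normalised reads (the read number divided by 1 factor per library), it stood at 299 and 287 in shCHD4-labelled cells against 279.7 and 278 in shSC-labelled cells at 1% O2, and 293 and 305 against 299 and 298 at 20% O2. Every difference between labels below is therefore a difference between libraries that carry these labels. The libraries held 24947627 to 31903585 reads assigned to genes, and the log2 values of the libraries of a group correlated across genes at 0.998 in every group. All 6 markers of the line were present, and their summed level was 7091 to 10532 per library. The 5 genes that the line is known to lack summed to 8.63 to 15.0, of which GATA3 was the only one with a mean of at least 1 and was lower in shCHD4-labelled cells, by limma with a log2 difference of -0.32 (adjusted p = 0.0026) at 1% O2 and one of -0.47 (adjusted p = 7.73e-05) at 20% O2. The summed level of 7 fibroblast markers was 4.98 to 5.52 in shCHD4-labelled and 3.43 to 3.50 in shSC-labelled libraries at 1% O2, and 5.28 to 6.14 in shCHD4-labelled and 4.43 to 4.79 in shSC-labelled libraries at 20% O2. PDGFRB was the only fibroblast marker with a mean of at least 1, and DCN, a defining product of fibroblasts, averaged 0.00517 over the 8 libraries. The summed level of 5 endothelial markers was 6.32 to 7.99 in shCHD4-labelled and 15.6 to 18.1 in shSC-labelled libraries, that of 3 leukocyte markers was under 2 in each, and the part of such markers in the results below was not tested.

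Promoter windows from RefSeq (GRCh38.p14, 250 bases before to 50 after the start) were found for 32 of the 44 genes. The windows of 5 genes are shown because the results below turn on them: COL4A1 and COL4A2, a pair transcribed in opposite directions from starts 127 bases apart, so that their windows overlap by 226 bases (chr13:110307108-110307407, minus strand, and chr13:110307034-110307333, plus strand); COL5A1, which was higher at 1% O2 (chr9:134641553-134641852, plus strand); and COL27A1 (chr9:114155287-114155586, plus strand) and COL4A5 (chrX:108439588-108439887, plus strand), which were far lower in libraries labelled shCHD4. Capitals mark the core of a hypoxia response element, ACGTG on either strand.
COL4A1: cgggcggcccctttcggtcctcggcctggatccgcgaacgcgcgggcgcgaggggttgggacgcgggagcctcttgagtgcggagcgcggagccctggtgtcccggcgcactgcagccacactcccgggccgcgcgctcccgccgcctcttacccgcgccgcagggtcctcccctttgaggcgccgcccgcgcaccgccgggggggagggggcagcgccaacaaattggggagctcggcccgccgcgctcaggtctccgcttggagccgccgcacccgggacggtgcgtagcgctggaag
COL4A2: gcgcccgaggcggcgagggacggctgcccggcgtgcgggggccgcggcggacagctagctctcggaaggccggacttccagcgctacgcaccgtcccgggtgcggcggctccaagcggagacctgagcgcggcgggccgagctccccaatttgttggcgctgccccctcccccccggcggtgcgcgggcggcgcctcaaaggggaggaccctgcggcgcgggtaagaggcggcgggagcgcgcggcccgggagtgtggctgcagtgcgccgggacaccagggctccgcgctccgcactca
COL5A1: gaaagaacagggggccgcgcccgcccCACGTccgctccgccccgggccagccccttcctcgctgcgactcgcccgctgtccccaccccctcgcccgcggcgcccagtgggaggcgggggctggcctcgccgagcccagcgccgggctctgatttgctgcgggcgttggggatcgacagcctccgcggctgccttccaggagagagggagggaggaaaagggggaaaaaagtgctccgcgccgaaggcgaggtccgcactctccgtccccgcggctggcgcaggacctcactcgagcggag
COL27A1: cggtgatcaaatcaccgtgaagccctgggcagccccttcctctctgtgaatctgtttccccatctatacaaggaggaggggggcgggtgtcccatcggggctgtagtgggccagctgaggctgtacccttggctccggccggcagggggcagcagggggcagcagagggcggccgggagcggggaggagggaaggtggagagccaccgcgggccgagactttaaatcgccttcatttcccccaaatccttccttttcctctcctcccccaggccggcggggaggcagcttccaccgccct
COL4A5: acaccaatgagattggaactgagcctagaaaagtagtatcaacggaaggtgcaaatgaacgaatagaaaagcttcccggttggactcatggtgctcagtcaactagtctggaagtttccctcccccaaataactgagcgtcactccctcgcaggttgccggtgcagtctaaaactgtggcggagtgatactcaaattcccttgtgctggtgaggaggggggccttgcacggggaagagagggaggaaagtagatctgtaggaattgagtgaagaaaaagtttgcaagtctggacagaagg
COL4A1 and COL4A2 share a window rich in G and C, at 76.7% and 77.7%, each with 45 CpG pairs, and the COL4A5 window has 49.3% and 8. The median over all 27305 windows was 58.3% and 14 CpG pairs. ACGTG was present in 5 of the 32 windows and in 21.6% of all windows. Among the 7 genes that were higher at 1% O2 in shSC-labelled cells, 6 had a window and 1 of these, COL5A1, held it. TATAAA on either strand was present in 3 of those 6 windows (COL13A1, COL17A1 and COL7A1), in 5 of the 32 and in 12.0% of all. A GC box, GGGCGG on either strand, was in 18 of the 32 windows and in 44.6% of all, and CCAAT on either strand in 10 of the 32 and in 35.7% of all. None of these 4 motifs contains another, and a match says only that the letters are in the window.

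Of the 44 genes, 19 averaged 1 normalised read or more over the 8 libraries and were tested together with the other genes past that limit, 12645 in all. The other 25 held 0 to 194 reads over all libraries together, with a median of 14, and COL9A1 had no read. The lowest tested genes were COL15A1, with a mean of 2.68, COL6A2 with 2.83 and COL16A1 with 2.90. The highest genes under the limit were COL19A1, a fibril-associated chain, at 0.894, COL4A4 at 0.841, COL4A6 at 0.818, COL9A3 at 0.337 and COL11A2 at 0.327. COL19A1 had 0.137 and 0.106 in shCHD4-labelled against 1.43 and 1.31 in shSC-labelled libraries at 1% O2. The same pairs of labels had 0.187 and 0.172 against 1.66 and 2.15 at 20% O2. Few COL19A1 reads were found under shCHD4, with 4 and 3 per library at 1% and 5 and 5 at 20% O2. As COL19A1 lay under the limit, no test of its label difference is given. COL1A2 and COL3A1, the other major chains of fibroblast fibrils, held 9 and 24 reads in all. COL27A1 and COL4A5 passed the limit only through the shSC-labelled libraries, so that they had to differ between labels; they stand in the counts below, and their label differences are given as values with no test.

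**Figure D1:**
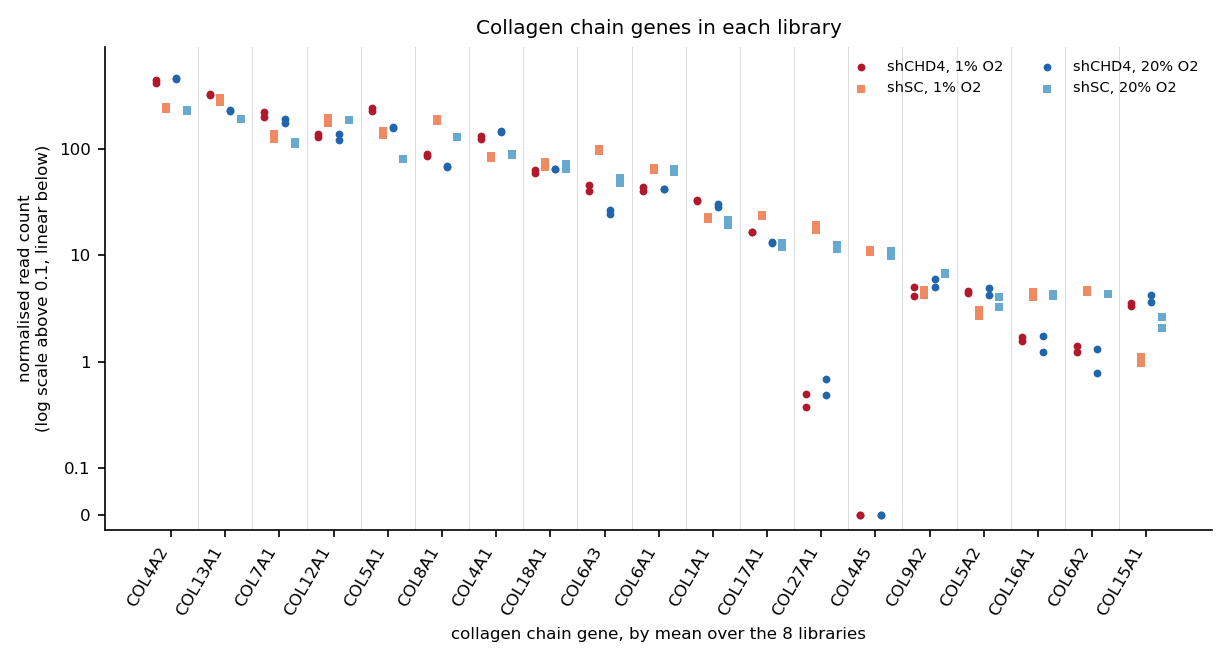
Normalised read count of the 19 tested collagen chain genes in each of the 8 libraries, ordered by mean, on an axis that is logarithmic above 0.1 and linear below. COL4A2 and COL13A1 have the highest means, on a count scale with no correction for transcript length, and COL4A5 lies at 0 in all 4 libraries labelled shCHD4 and at 9.77 to 11.1 in those labelled shSC.

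Collagen chain genes together took 0.177% ± 0.00695 of reads in shCHD4-labelled cells at 1% O2, 0.147% ± 0.00303 in shSC-labelled cells at 1% O2, 0.159% ± 0.00285 in shCHD4-labelled cells at 20% O2 and 0.123% ± 0.00241 in shSC-labelled cells at 20% O2 (SD, n = 2 each). The share was thus higher at 1% O2 under either label and higher in shCHD4-labelled cells at either O2 level, with no overlap between the groups compared; this sum was not tested. Of the summed collagen value, basement membrane chains took 31.7% and 21.4% in shCHD4-labelled and shSC-labelled cells at 1% O2, and 38.6% and 25.8% in shCHD4-labelled and shSC-labelled cells at 20% O2. In the same order of groups, fibrillar chains took 15.5%, 11.7%, 12.4% and 9.08%. The beaded filament chains of type VI went the other way between labels, with 4.90% in shCHD4-labelled against 10.5% in shSC-labelled cells at 1% O2, and 4.37% against 9.14% at 20% O2. These are shares of normalised reads, in which long transcripts weigh more. The hexagonal network class, which was nearly all COL8A1, took 4.99% against 11.7% at 1% O2 and 4.35% against 10.1% at 20% O2 in the same pairs of labels.

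**Figure D2:**
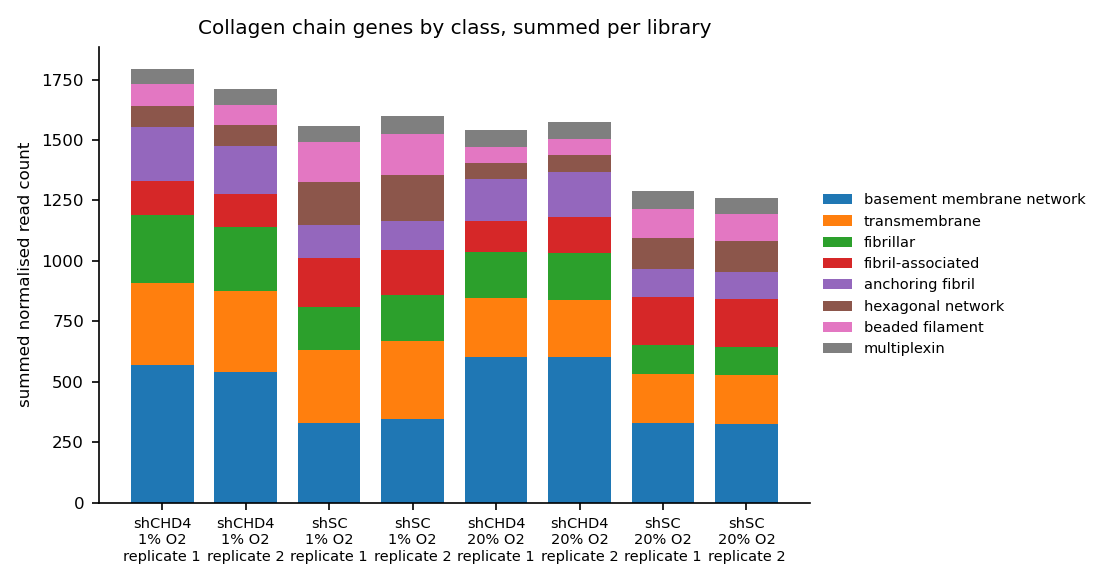
Summed normalised read count of the collagen chain genes in each library, stacked by class; COL26A1, with at most 3 reads in a group, is not drawn. Basement membrane chains (bottom) and fibrillar chains fill more of the bars of libraries labelled shCHD4, and beaded filament and hexagonal network chains fill less.

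The counts and class shares above carry no correction for transcript length, so levels of single genes were also set side by side per kilobase of the longest protein-coding transcript in GENCODE release 29. On that scale COL13A1, a transmembrane collagen of cell adhesion sites, was highest in every group, at 101, 90.7, 71.4 and 59.2 per kilobase in shCHD4-labelled cells at 1%, shSC-labelled cells at 1%, shCHD4-labelled cells at 20% and shSC-labelled cells at 20% O2. COL4A2 was next in every group, at 65.7, 37.3, 70.2 and 35.3 in that order of groups. In shCHD4-labelled cells at 20% O2 this leading pair was only just apart, with libraries at 72.2 and 70.6 for COL13A1 and 70.0 and 70.5 for COL4A2. The chains of a heterotrimer were unequal: COL4A2 exceeded its partner COL4A1 by 3.40, 2.99, 3.23 and 2.65 times per kilobase in the same order of groups. COL5A1 exceeded COL5A2, its usual partner in type V collagen, by 43.4, 41.3, 29.3 and 18.3 times. Among the chains of type VI collagen, COL6A1 exceeded COL6A2 by 25.8, 11.4, 34.7 and 11.8 times. The value of 34.7 averages libraries at 43.5 and 25.9, in which COL6A2 held 21 and 38 reads. COL6A1 exceeded COL6A3 by 2.47, 1.70, 4.20 and 3.16 times.

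The first question was which collagen chains respond to 24 h at 1% O2. In shCHD4-labelled cells 6 of the 19 tested genes rose (COL6A3, COL5A1, COL13A1, COL8A1, COL17A1 and COL7A1) and 1, COL4A1, fell, by limma with Benjamini-Hochberg adjustment over all 12645 genes at 0.05. Over all tested genes 23% were called in this comparison, 12.3% higher and 10.7% lower. In shSC-labelled cells 7 rose, the same 6 and COL27A1, and 2 fell, COL15A1 and COL9A2, against 35.2% of all genes called, 17.4% higher and 17.9% lower. The shared 6 were 100% of those that rose under shCHD4 and 85.7% of those that rose under shSC, no gene fell under both, and these 2 comparisons share no library. The same overlap over all tested genes is not given here, so these percentages cannot be read as particular to collagen chains. On the scale of log2(normalised read count + 0.5), on which all fold changes here are given and which understates changes of low genes, none of the 19 changed by as much as 2-fold in either. The median log2 difference over the 19 genes was 0.027 in shCHD4-labelled and 0.08 in shSC-labelled cells, and over all tested genes -0.0037 and -0.011.

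Both tested transmembrane collagens, of 4 in the table, rose under both labels. COL13A1 had 323 and 319 normalised reads at 1% O2 against 230.1 and 225 at 20% O2 in shCHD4-labelled cells, and 277 and 301 against 189 and 189 in shSC-labelled cells. It rose 1.41-fold under shCHD4 (log2 difference 0.50, 95% interval 0.40 to 0.59, adjusted p = 2.56e-07) and 1.53-fold under shSC (log2 difference 0.61, 95% interval 0.52 to 0.71, adjusted p = 9.61e-09). Centred on the levels of neighbouring genes, its rise under shCHD4 did not pass (0.14, adjusted p = 0.072, range over all settings 3.09e-20 to 0.072). COL17A1, the collagen of hemidesmosomes, the junctions that fix epithelial cells to the basement membrane, had 16.5 and 16.4 at 1% against 13.2 and 13.1 at 20% O2 under shCHD4, and 23.6 and 23.5 against 13.0 and 12.0 under shSC. Its 20% O2 level was close under both labels, and its 1% O2 level was lower under shCHD4. The rise was 1.24-fold under shCHD4 (log2 difference 0.32, 95% interval 0.16 to 0.48, adjusted p = 0.00633) and 1.85-fold under shSC (log2 difference 0.89, 95% interval 0.73 to 1.05, adjusted p = 7.57e-08). The call under shCHD4 was kept in 19 of 21 alternative settings, with log2 differences of 0.14 to 0.33 and adjusted p of 0.00369 to 0.247 over all settings. Leaving out shCHD4 1% O2 replicate 1 was among those that ended it.

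Of the type VI chains, which build beaded filaments around cells, COL6A3 rose and its partners were not called. COL6A3 had 45.4 and 40.3 at 1% O2 against 24.1 and 26.4 at 20% O2 under shCHD4, and 94.2 and 98.7 against 52.8 and 47.2 under shSC. It rose 1.68-fold under shCHD4 (log2 difference 0.75, 95% interval 0.60 to 0.90, adjusted p = 3.36e-07) and 1.92-fold under shSC (log2 difference 0.94, 95% interval 0.80 to 1.09, adjusted p = 9.93e-09). COL6A1 had 43.7 and 39.6 at 1% against 41.9 and 41.5 at 20% O2 under shCHD4 and 63.6 and 65.8 against 64.6 and 59.7 under shSC, so the O2 levels overlapped. Its log2 differences were -0.0025 (95% interval -0.13 to 0.12) and 0.058 (-0.069 to 0.19). COL6A2, with 59 to 267 reads per group, differed by 0.25 (-0.078 to 0.59) under shCHD4 and 0.093 (-0.24 to 0.43) under shSC. Type VI chains usually assemble together, and the ratio of COL6A1 to COL6A3 per kilobase was 2.44 and 2.49 at 1% against 4.41 and 3.99 at 20% O2 under shCHD4, and 1.71 and 1.69 against 3.10 and 3.21 under shSC.

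Among fibrillar chains COL5A1, which starts and limits the width of collagen fibrils, rose under both labels. It had 241 and 228 at 1% O2 against 157 and 159.5 at 20% O2 under shCHD4, and 134 and 145 against 79.8 and 79.0 under shSC. The 1% O2 libraries lay above the 20% O2 libraries of the same label, by 1.48-fold under shCHD4 (log2 difference 0.56, 95% interval 0.46 to 0.67, adjusted p = 1.02e-07) and 1.75-fold under shSC (log2 difference 0.81, 95% interval 0.71 to 0.91, adjusted p = 4.39e-10). COL5A2 had 4.64 and 4.38 against 4.86 and 4.21 under shCHD4 and 3.04 and 2.65 against 4.05 and 3.27 under shSC, with log2 differences of -0.0049 (adjusted p = 0.985) and -0.31 (adjusted p = 0.0759). COL1A1, the main chain of type I collagen, had 32.6 and 32.2 at 1% against 28.1 and 30.2 at 20% O2 under shCHD4 and 21.8 and 23.0 against 21.1 and 19.1 under shSC. It stood higher at 1% O2 in each library without passing the test, by 0.15 (adjusted p = 0.142) and 0.15 (adjusted p = 0.106). Under shSC COL1A1 passed without shSC 20% O2 replicate 1 (0.22, adjusted p = 0.0415) and centred on the deviations of neighbouring genes (0.22, adjusted p = 0.02, range 0.02 to 0.476). Without shSC 20% O2 replicate 2, COL5A2 passed as lower under shSC (-0.45, adjusted p = 0.0337, range over all settings 0.0337 to 0.426). COL27A1, a fibrillar chain best known from cartilage, had 0.378 and 0.495 at 1% against 0.486 and 0.69 at 20% O2 under shCHD4, which is 11 to 20 reads per library, and did not pass (log2 difference -0.21, adjusted p = 0.269). Under shSC it had 17.3 and 19.2 against 11.3 and 12.4, a 1.52-fold rise (log2 difference 0.60, 95% interval 0.32 to 0.88, adjusted p = 0.00218).

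COL8A1, a short network chain of vessel walls and the cornea, had 88.9 and 86.1 at 1% O2 against 68.4 and 67.2 at 20% O2 under shCHD4, and 181 and 188 against 129 and 128 under shSC. It rose 1.29-fold under shCHD4 (log2 difference 0.37, 95% interval 0.27 to 0.46, adjusted p = 1.65e-05) and 1.44-fold under shSC (log2 difference 0.52, 95% interval 0.43 to 0.62, adjusted p = 1.09e-07). COL7A1, which forms the anchoring fibrils that tie basement membrane to dermis, had 221 and 199 against 174 and 188 under shCHD4, and 136 and 122 against 116 and 110.0 under shSC. The rises were small, 1.16-fold (adjusted p = 0.0152) and 1.14-fold (adjusted p = 0.0198), and with no filter on low values neither passed (adjusted p = 0.0874 and 0.0926, ranges over all settings 0.00622 to 0.229 and 0.0075 to 0.251). Leaving out shSC 1% O2 replicate 1 also ended the shSC call (log2 difference 0.11), as did leaving out shSC 20% O2 replicate 2 (0.15). Leaving out replicate 1 of shCHD4 at either 1% or 20% O2 ended the shCHD4 call (0.14 and 0.16).

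None of the tested basement membrane chains was called higher at 1% O2. COL4A1 had 131 and 124 at 1% O2 against 146 and 142 at 20% O2 under shCHD4, and 80.9 and 84.4 against 87.0 and 89.4 under shSC. It was lower at 1% O2 in every library and passed under shCHD4 (log2 difference -0.17, 95% interval -0.27 to -0.07, adjusted p = 0.0165) but not under shSC (-0.093, adjusted p = 0.142). Leaving out either shCHD4 1% O2 replicate 2 or shCHD4 20% O2 replicate 1 ended the shCHD4 call (adjusted p = 0.185 and 0.142), in a range of 0.00254 to 0.185 over all settings. COL4A2 had 438 and 415 against 454 and 458 under shCHD4 and 237 and 247 against 232 and 227 under shSC. Its log2 differences were -0.097 (adjusted p = 0.108) and 0.08 (adjusted p = 0.154). Of 21 alternative settings, 20 left COL4A2 uncalled under each label, and 20 left COL4A1 uncalled under shSC. COL4A5, the chain whose loss causes the kidney disease Alport syndrome, had no read under shCHD4 at either O2 level, and 10.7 and 11.1 at 1% against 11.0 and 9.77 at 20% O2 under shSC (log2 difference 0.065, 95% interval -0.24 to 0.37).

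Fibril-associated and multiplexin chains gave the only falls under shSC. COL9A2, a fibril-associated chain, had 4.09 and 5.02 at 1% O2 against 5.01 and 5.97 at 20% O2 under shCHD4 (log2 difference -0.25, 95% interval -0.51 to 0.011, adjusted p = 0.155), and 4.25 and 4.74 against 6.74 and 6.65 under shSC (-0.53, adjusted p = 0.00276). COL15A1, a multiplexin of basement membrane zones, had 3.54 and 3.32 against 3.59 and 4.24 under shCHD4 (-0.17, adjusted p = 0.44), and 1.11 and 0.974 against 2.07 and 2.60 under shSC (log2 difference -0.87, 95% interval -1.18 to -0.57, adjusted p = 0.000156), which rests on 60 reads at 1% and 120 at 20% O2. COL18A1, whose released end is the angiogenesis inhibitor endostatin, differed by -0.084 (95% interval -0.21 to 0.046) under shCHD4 and 0.058 (-0.072 to 0.19) under shSC. The fibril-associated COL12A1, at 136 and 128 against 121 and 139 under shCHD4 and 192 and 172 against 186 and 187 under shSC, differed by 0.027 (-0.10 to 0.16) and -0.037 (-0.17 to 0.091). COL16A1, of the same class, differed by 0.11 (-0.20 to 0.41) under shCHD4 and 0.025 (-0.28 to 0.33) under shSC. None of the last 3 was called under either label.

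**Figure D3:**
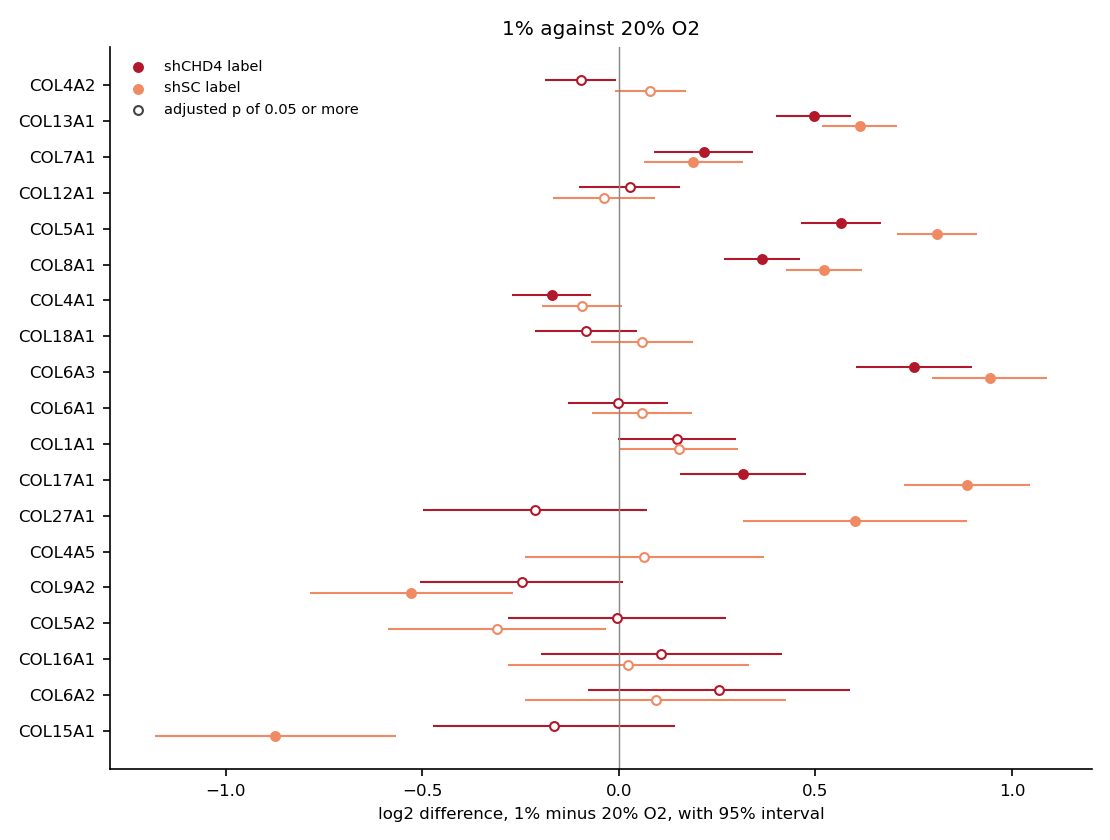
Log2 difference of each tested collagen chain gene at 1% minus 20% O2 with its 95% interval, for shCHD4-labelled and shSC-labelled cells; open points did not pass at 0.05, and COL4A5 has no value under shCHD4. The 6 genes called higher under both labels lie to the right of 0 in both colours, and COL15A1 and COL9A2 lie to the left.

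The second question was how collagen RNA differed between the labels. At 1% O2, 8 of the 19 genes were higher in shCHD4-labelled cells (COL15A1, COL4A2, COL5A1, COL7A1, COL4A1, COL5A2, COL1A1 and COL13A1) and 10 were lower (COL4A5, COL27A1, COL6A2, COL16A1, COL6A3, COL8A1, COL6A1, COL17A1, COL12A1 and COL18A1). At 20% O2, 7 were higher and 8 lower, all of them among those called in the same direction at 1% O2, which is 87.5% and 80% of the calls there. The 8 include COL4A5 and COL27A1, which had to differ. These 2 comparisons share no library, and the same overlap over all tested genes is not given here. Over all tested genes 77.4% were called at 1% O2, 38.2% higher and 39.2% lower, and 75.6% at 20% O2, 37% higher and 38.6% lower, so most tested genes were called between labels. The median log2 difference over the 19 genes was -0.21 at 1% and -0.068 at 20% O2, against -0.0067 and -0.0091 over all tested genes, and it does not change with COL4A5 at its bound.

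COL4A5 and COL27A1 differed most. COL4A5 had no read in the 4 libraries labelled shCHD4, against 10.7 and 11.1 normalised reads (628 reads) in shSC-labelled cells at 1% O2 and 11.0 and 9.77 (529 reads) at 20% O2. With 3 reads over a group as the floor it was at least 208-fold lower in shCHD4-labelled cells at 1% O2 and at least 193-fold lower at 20% O2. COL27A1 had 0.378 and 0.495 in shCHD4-labelled against 17.3 and 19.2 in shSC-labelled cells at 1% O2, and 0.486 and 0.69 against 11.3 and 12.4 at 20% O2. The log2 difference of COL27A1 was -4.33 at 1% and -3.51 at 20% O2. The 40 tested genes nearest to COL4A5 on chromosome X had a median log2 difference of -0.52 at 1% and -0.54 at 20% O2, and 27 and 28 of them were called lower. The 40 nearest to COL27A1 on chromosome 9 had -0.41 and -0.46, with 29 and 30 called lower. On this scale no neighbour of COL4A5 and 2 of those of COL27A1 were as low as the collagen gene at each O2 level.

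COL4A1 and COL4A2, the heterotrimer partners of nearly all basement membranes, were higher in shCHD4-labelled cells together with the genes around them. COL4A2 had 438 and 415 in shCHD4-labelled against 237 and 247 in shSC-labelled cells at 1% O2, and 454 and 458 against 232 and 227 at 20% O2. It was 1.76-fold (log2 difference 0.81, 95% interval 0.72 to 0.90, adjusted p = 3.94e-12) and 1.99-fold higher (log2 difference 0.99, 95% interval 0.902 to 1.082, adjusted p = 2.39e-13). COL4A1 had 131 and 124 against 80.9 and 84.4 at 1% O2 and 146 and 142 against 87.0 and 89.4 at 20% O2, and was 1.54-fold (adjusted p = 1.01e-09) and 1.63-fold higher (adjusted p = 2.03e-10). The 40 tested genes nearest to the pair on chromosome 13 had a median log2 difference of 0.85 at 1% and 0.82 at 20% O2, and 35 of the 40 were called higher at each O2 level. The median over all 229 tested genes of chromosome 13 was 0.74 at 1% and 0.69 at 20% O2. An alternative chosen after seeing the data took off the median of those neighbours' deviations in each library. By it COL4A1 was lower in shCHD4-labelled cells, at -0.23 at 1% (adjusted p = 0.00062) and -0.13 at 20% O2 (adjusted p = 0.0367). COL4A2 was at -0.039 (adjusted p = 0.451) and 0.16 (adjusted p = 0.00323). Of 21 alternative settings, 19 kept COL4A1 called higher at each O2 level. COL4A2 stayed called higher in 19 at 1% and 21 at 20% O2. Over all settings, adjusted p for COL4A1 was 6.13e-26 to 0.025 at 1% and 7.04e-33 to 0.912 at 20% O2. These ranges mix both directions, with log2 differences of -0.23 to 0.72 and -0.13 to 0.82. For COL4A2, adjusted p was 2.65e-64 to 0.593 at 1% (log2 differences -0.039 to 0.93) and 5.69e-95 to 0.00323 at 20% O2.

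**Figure D4:**
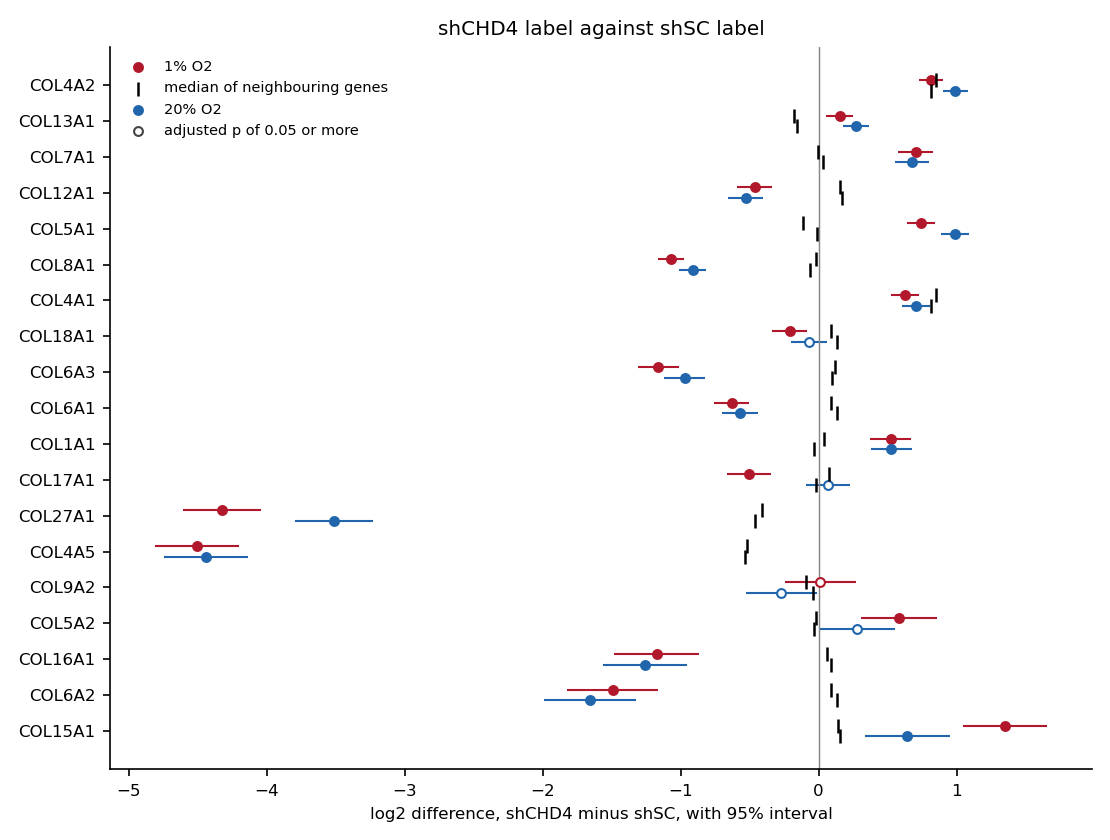
Log2 difference of each tested collagen chain gene, shCHD4-labelled minus shSC-labelled cells, with its 95% interval at 1% and 20% O2; short black bars give the median of the 29 to 40 nearest tested genes on the same chromosome, and open points did not pass at 0.05. COL4A1 and COL4A2 lie near the bars of their neighbours, and COL5A1, COL7A1, COL8A1, COL6A2 and COL27A1 lie away from theirs. The points of COL4A5 depend on the 0.5 added to each value.

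The tested fibrillar chains other than COL27A1 were called higher in shCHD4-labelled cells at 1% O2, and COL5A1 and COL1A1 also at 20% O2. COL5A1 had 241 and 228 in shCHD4-labelled against 134 and 145 in shSC-labelled cells at 1% O2, and 157 and 159.5 against 79.8 and 79.0 at 20% O2. It was 1.68-fold (log2 difference 0.74, 95% interval 0.64 to 0.85, adjusted p = 8.15e-11) and 1.99-fold higher (log2 difference 0.99, 95% interval 0.89 to 1.09, adjusted p = 1.42e-12), while the median of its 40 neighbours was -0.11 and -0.013. COL1A1 averaged 32.4 ± 0.246 in shCHD4-labelled and 22.4 ± 0.882 in shSC-labelled cells at 1% O2, and 29.2 ± 1.49 and 20.1 ± 1.45 at 20% O2 (SD, n = 2 each), 1.44-fold and 1.44-fold higher (adjusted p = 2.33e-06 and 2.21e-06). COL5A2 averaged 4.51 ± 0.178 against 2.85 ± 0.272 at 1% O2, 1.499-fold higher (adjusted p = 0.000574), and 4.54 ± 0.464 against 3.66 ± 0.556 at 20% O2, where it did not pass (adjusted p = 0.0634). At 20% O2 14 of 20 alternative settings also left COL5A2 uncalled, and the others called it higher. Leaving out shCHD4 20% O2 replicate 2 or shSC 20% O2 replicate 1 was among those others. The log2 difference was 0.14 to 0.42 over all settings. The anchoring fibril chain COL7A1 had 221 and 199 against 136 and 122 at 1% O2 and 174 and 188 against 116 and 110.0 at 20% O2. Its groups lay clearly apart, 1.63-fold (adjusted p = 4.23e-09) and 1.60-fold higher (adjusted p = 7.75e-09), with neighbours on chromosome 3 at -0.0049 and 0.031.

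All 3 tested type VI chains were lower in shCHD4-labelled cells. COL6A3 had 45.4 and 40.3 in shCHD4-labelled against 94.2 and 98.7 in shSC-labelled cells at 1% O2, and 24.1 and 26.4 against 52.8 and 47.2 at 20% O2. It was 2.24-fold (log2 difference -1.16, 95% interval -1.31 to -1.02, adjusted p = 2.81e-11) and 1.96-fold lower (log2 difference -0.97, 95% interval -1.12 to -0.82, adjusted p = 4.18e-10). COL6A1 was 1.55-fold lower at 1% O2 (41.7 ± 2.89 against 64.7 ± 1.58, adjusted p = 2.23e-08) and 1.48-fold lower at 20% O2 (41.7 ± 0.245 against 62.2 ± 3.48, adjusted p = 9.4e-08). COL6A2 had 1.41 and 1.24 against 4.72 and 4.54 at 1% O2 and 0.786 and 1.31 against 4.30 and 4.31 at 20% O2, 2.82-fold (adjusted p = 8.55e-08) and 3.15-fold lower (adjusted p = 2.22e-08). COL6A1, COL6A2 and COL18A1 lie close together on chromosome 21, and the 29 tested genes around them had a median of 0.091 at 1% and 0.14 at 20% O2.

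COL8A1 was lower in shCHD4-labelled cells at both O2 levels. It had 88.9 and 86.1 in shCHD4-labelled against 181 and 188 in shSC-labelled cells at 1% O2, and 68.4 and 67.2 against 129 and 128 at 20% O2. The difference was 2.10-fold (log2 difference -1.07, 95% interval -1.17 to -0.97, adjusted p = 2.21e-13) and 1.88-fold (log2 difference -0.91, 95% interval -1.01 to -0.82, adjusted p = 2.37e-12). The level of COL8A1 in shCHD4-labelled cells at 1% O2 stayed below that in shSC-labelled cells at 20% O2, and the 4 groups did not overlap. Of the fibril-associated chains, COL12A1 was 1.38-fold lower at 1% (adjusted p = 1.56e-06) and 1.44-fold lower at 20% O2 (adjusted p = 3.01e-07). COL16A1 averaged 1.62 ± 0.107 in shCHD4-labelled and 4.29 ± 0.351 in shSC-labelled cells at 1% O2, and 1.48 ± 0.339 and 4.20 ± 0.15 at 20% O2, 2.26-fold (adjusted p = 6.98e-07) and 2.39-fold lower (adjusted p = 3e-07). COL9A2 did not pass at either level, with 0.012 (95% interval -0.25 to 0.27) at 1% and -0.27 (-0.53 to -0.011) at 20% O2. There it passed as lower under 5 alternatives: a pseudocount of 1, only the groups compared, the replicate block, centring on the levels of neighbouring genes (-0.41, adjusted p = 0.0114), and leaving out replicate 2 of shCHD4 20% O2 (-0.38, adjusted p = 0.0276, range 0.0114 to 0.363).

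The multiplexins parted. COL15A1 had 3.54 and 3.32 in shCHD4-labelled against 1.11 and 0.974 in shSC-labelled cells at 1% O2, and 3.59 and 4.24 against 2.07 and 2.60 at 20% O2. It was 2.55-fold (log2 difference 1.35, 95% interval 1.04 to 1.66, adjusted p = 1.1e-07) and 1.56-fold higher (log2 difference 0.64, 95% interval 0.34 to 0.95, adjusted p = 0.000623). COL18A1 had 59.5 and 62.3 against 67.1 and 74.1 at 1% O2, where it was 1.16-fold lower (adjusted p = 0.00482), and 64.2 and 64.9 against 71.6 and 64.0 at 20% O2, where the labels overlapped (adjusted p = 0.324) and it passed without shSC 20% O2 replicate 2 (-0.15, adjusted p = 0.0483, range 0.0384 to 0.881). The COL18A1 call at 1% O2 ended when shCHD4 1% O2 replicate 1 or shSC 1% O2 replicate 2 was left out (adjusted p = 0.0547 and 0.0908) and with quantile normalization (0.0559), in a range of 9.73e-05 to 0.0908. Of the transmembrane chains, COL13A1 was 1.11-fold (adjusted p = 0.00534) and 1.21-fold higher (adjusted p = 3.02e-05) at 1% and 20% O2, and the call at 1% ended without shSC 1% O2 replicate 1 (0.09, adjusted p = 0.108, range 6.22e-07 to 0.108). COL17A1 was 1.42-fold lower at 1% O2 (log2 difference -0.50, 95% interval -0.66 to -0.34, adjusted p = 8.49e-06) and differed by 0.067 (95% interval -0.093 to 0.23) at 20% O2.

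The third question was whether the response to 1% O2 differed between the labels. The interaction, the log2 response of shCHD4-labelled minus that of shSC-labelled cells, passed for 3 of the 19 genes, all with the lower value under shCHD4, against 4.36% of all tested genes, 2.21% higher and 2.14% lower. COL17A1 had the smallest p, with -0.57 (95% interval -0.80 to -0.34, adjusted p = 0.00487): its rise was 0.32 in shCHD4-labelled and 0.89 in shSC-labelled cells. It passed under every alternative tried, with adjusted p from 0.00261 to 0.0389. COL27A1 had an interaction of -0.81 (-1.22 to -0.41, adjusted p = 0.0197), which rests on 11 to 20 reads per shCHD4-labelled library, in a gene that passed the limit on low values only through the shSC-labelled libraries. It did not pass with edgeR (adjusted p = 0.129) or DESeq2 (adjusted p = 0.181) on the recovered reads, in a range of 0.00781 to 0.181 over all settings. COL5A1 had -0.25 (-0.39 to -0.10, adjusted p = 0.0492), just inside the threshold, with a range of 0.0354 to 0.251 over all settings. The COL5A1 call was kept in 8 of 20 alternative settings. It ended without any one of 6 libraries, with values of -0.19 without shSC 1% O2 replicate 2 to -0.29 without shCHD4 1% O2 replicate 1, and held without shSC 1% O2 replicate 1 or shSC 20% O2 replicate 1. The COL27A1 call ended without either shSC 1% O2 library, shCHD4 1% O2 replicate 1 or shCHD4 20% O2 replicate 2, with values of -0.68 to -0.89. COL15A1 fell at 1% O2 under shSC and was not called under shCHD4, and its interaction of 0.71 (0.27 to 1.14) did not pass (adjusted p = 0.0598), though it did without shSC 20% O2 replicate 1 (0.84, adjusted p = 0.0271, range 0.0271 to 0.217). COL15A1 also passed with edgeR on the recovered reads. For the other 15 genes the interaction lay between -0.19 and 0.31 with adjusted p of 0.108 or more. The median over the 19 genes was -0.065, and over all tested genes 0.0032.

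**Figure D5:**
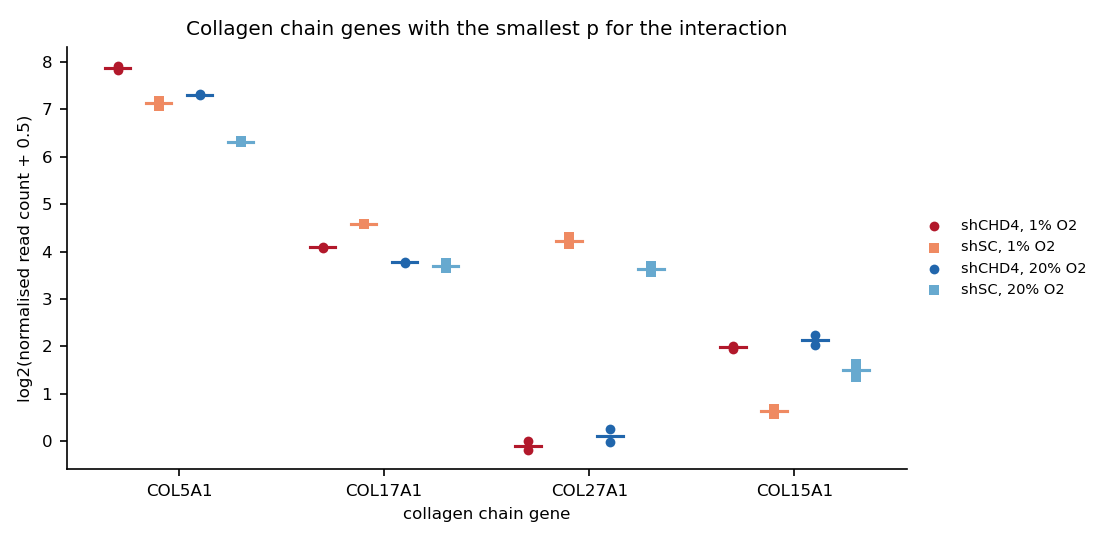
Log2(normalised read count + 0.5) of the 4 collagen chain genes with the smallest p for the interaction, with points for libraries and lines for group means. COL17A1 is close in both labels at 20% O2 and lower in shCHD4-labelled cells at 1% O2, COL27A1 is near 0 in both shCHD4-labelled groups, and COL15A1 is lowest in shSC-labelled cells at 1% O2.

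Of 12 tested enzymes that hydroxylate and glycosylate procollagen, 5 rose and 1 fell at 1% O2 under each label (12.3% and 10.7% of all tested genes under shCHD4, 17.4% and 17.9% under shSC), with medians of 0.045 under shCHD4 and 0.15 under shSC. Of these enzymes 3 rose by at least 2-fold under shCHD4 and 4 under shSC, a limit for which no share over all tested genes is given here. P4HA1, the catalytic subunit of a prolyl hydroxylase, rose 3.70-fold under shCHD4 (adjusted p = 2.5e-15) and 4.53-fold under shSC (adjusted p = 3.29e-16). PLOD2, a lysyl hydroxylase of the telopeptides, rose 2.23-fold under shCHD4 (adjusted p = 1.66e-12) and 2.62-fold under shSC (adjusted p = 1.15e-13). Between labels 1 was higher and 7 lower at 1% O2, and 3 higher and 5 lower at 20% O2 (38.2% and 39.2% of all tested genes at 1% O2, 37% and 38.6% at 20% O2), with medians of -0.19 and -0.094. PLOD2 averaged 253 ± 0.8 in shCHD4-labelled against 473 ± 9.17 in shSC-labelled cells at 1% O2, 1.87-fold lower, and the prolyl hydroxylase subunit P4HA2 averaged 40.9 ± 1.38 against 79.6 ± 2.57, 1.94-fold lower. The response to 1% O2 was smaller under shCHD4 for PLOD1, a lysyl hydroxylase of the helix (interaction -0.37, adjusted p = 0.00595), and for P4HA1 (-0.29, adjusted p = 0.0201).

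Of 16 tested genes for folding and export of procollagen, 4 rose at 1% O2 under shCHD4, where 12.3% of all tested genes rose, and 5 rose and 2 fell under shSC, where 17.4% rose and 17.9% fell, with medians of 0.10 and 0.082. SEC24D, a coat protein of the vesicles that carry procollagen, rose 1.15-fold under shCHD4 (adjusted p = 0.00608) and 1.31-fold under shSC (adjusted p = 4.98e-06). SERPINH1, the collagen-specific chaperone, rose 1.11-fold under shCHD4 (adjusted p = 0.0296). Between labels 7 were higher and 7 lower at 1% O2, and 5 higher and 6 lower at 20% O2 (38.2% and 39.2% of all tested genes at 1% O2, 37% and 38.6% at 20% O2), counting FKBP10, which passed the limit on low values only through the shCHD4-labelled libraries, with medians of 0.037 and 0.039. CREB3L1, a membrane-bound transcription factor that drives type I collagen in mouse bone, averaged 29.3 ± 1.78 in shCHD4-labelled and 105 ± 3.93 in shSC-labelled cells at 1% O2, and 26.0 ± 0.863 and 89.5 ± 1.91 at 20% O2. It was 3.55-fold (adjusted p = 2.66e-15) and 3.40-fold lower (adjusted p = 4.8e-15), while COL1A1 was higher. The endoplasmic reticulum chaperone HSPA5 was 2.75-fold and 2.50-fold lower (adjusted p = 5.88e-15 and 2.76e-14).

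Propeptide removal and crosslinking genes were lower in shCHD4-labelled cells in 9 of 10 cases at each O2 level, with 1 higher (39.2% lower and 38.2% higher of all tested genes at 1% O2, 38.6% lower and 37% higher at 20% O2), and medians of -0.54 at 1% and -0.39 at 20% O2. The lower ones count PCOLCE2, which averaged 0.791 in shCHD4-labelled against 4.81 in shSC-labelled cells at 20% O2. The limit on low values was set over all 8 libraries, and PCOLCE2 passed it only through the shSC-labelled ones. At 1% O2 it averaged 1.10 in shCHD4-labelled against 5.24 in shSC-labelled cells, so the limit bears on its calls at both O2 levels. LOX, the lysyl oxidase that crosslinks fibrils, averaged 72.6 ± 0.506 in shCHD4-labelled and 258 ± 11.3 in shSC-labelled cells at 1% O2, and 21.1 ± 0.232 and 63.9 ± 2.93 at 20% O2. It was 3.53-fold (adjusted p = 6.49e-16) and 2.98-fold lower (adjusted p = 5.47e-15). At 1% O2 3 of the 10 rose and 2 fell under shCHD4, and 5 rose and 1 fell under shSC (12.3% and 10.7% of all tested genes under shCHD4, 17.4% and 17.9% under shSC), with medians of 0.19 and 0.16. LOXL2, a relative of LOX, rose 1.51-fold under shCHD4 and 1.64-fold under shSC (adjusted p = 7.73e-09 and 4.29e-10). FURIN, a proprotein protease, had a smaller response under shCHD4 (interaction -0.30, adjusted p = 0.0209).

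Proteins that bind collagen fibrils split between the labels, 3 of 7 higher and 4 lower in shCHD4-labelled cells at each O2 level (38.2% and 39.2% of all tested genes at 1% O2, 37% and 38.6% at 20% O2), counting SPARC, which passed the limit on low values only through the shCHD4-labelled libraries, and THBS2, which passed only through the shSC-labelled ones, with medians of -0.66 at 1% and -0.33 at 20% O2. Fibronectin (FN1) averaged 479.5 ± 19.2 in shCHD4-labelled and 1468 ± 87.4 in shSC-labelled cells at 1% O2, 3.06-fold lower (adjusted p = 1.19e-15). SPARC, a collagen-binding matricellular protein, averaged 6.32 ± 0.338 in shCHD4-labelled and 0.538 ± 0.048 in shSC-labelled cells at 1% O2. At 1% O2, 3 rose and 1 fell under each label (12.3% and 10.7% of all tested genes under shCHD4, 17.4% and 17.9% under shSC), with medians of 0.087 under shCHD4 and 0.22 under shSC; TGFBI, which binds type VI collagen, rose 1.42-fold under shCHD4 and 1.78-fold under shSC (adjusted p = 1.12e-06 and 7.54e-10), with an interaction of -0.33 (adjusted p = 0.0146). Of 7 collagen receptors, read against the same shares, 2 rose at 1% O2 under shCHD4 and 2 rose and 1 fell under shSC (medians 0.088 and 0.073), and 2 were higher and 3 lower between labels at 1% O2 and 3 higher and 3 lower at 20% O2 (medians 0.022 and -0.051). ITGA2, the alpha subunit of a main collagen-binding integrin, averaged 247 ± 0.782 in shCHD4-labelled and 636 ± 29.8 in shSC-labelled cells at 1% O2, 2.56-fold lower (adjusted p = 1.2e-14), and its partner ITGB1 rose 1.14-fold under shCHD4 and 1.18-fold under shSC at 1% O2 (adjusted p = 0.00363 and 0.000271).

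Of 7 collagen-degrading proteases, against 12.3% of all tested genes higher and 10.7% lower under shCHD4 and 17.4% and 17.9% under shSC, 3 rose at 1% O2 under shCHD4 and 3 rose and 2 fell under shSC (medians 0.066 and 0.22), and 2 were higher and 4 lower in shCHD4-labelled cells at 1% O2 and 2 higher and 5 lower at 20% O2, against 38.2% and 39.2%, and 37% and 38.6%, of all tested genes (medians -0.74 and -0.66). MMP1, the interstitial collagenase, had 31.9 and 32.5 in shCHD4-labelled against 326 and 268 in shSC-labelled cells at 1% O2, and 27.7 and 24.9 against 103 and 106 at 20% O2. Its rise at 1% O2 was 1.22-fold in shCHD4-labelled and 2.81-fold in shSC-labelled cells, and the interaction was -1.20 (adjusted p = 1.4e-06). MMP14, a membrane-bound collagenase, was 1.73-fold lower at 1% and 1.78-fold lower at 20% O2 in shCHD4-labelled cells (adjusted p = 8.92e-12 and 4.27e-12). Of 19 tested regulators of collagen transcription, 15 were lower and 2 higher in shCHD4-labelled cells at 1% O2 and 16 lower and 2 higher at 20% O2, against 39.2% lower and 38.2% higher, and 38.6% lower and 37% higher, of all tested genes (medians -0.65 and -0.67). The lower ones count CIITA at both O2 levels and TGFB3 at 20% O2, which passed the limit on low values only through the shSC-labelled libraries. TGFBR2, a receptor of the profibrotic cytokine TGF-beta, averaged 263 ± 8.06 in shCHD4-labelled and 884 ± 24.2 in shSC-labelled cells at 1% O2, 3.36-fold lower (adjusted p = 3.49e-17), and CTGF, a target and cofactor of TGF-beta, averaged 468 ± 7.79 and 1542 ± 2.90, 3.29-fold lower (adjusted p = 1.95e-17). At 1% O2, 6 of the 19 rose and 1 fell under shCHD4 and 5 rose and 6 fell under shSC (medians 0.052 and 0.0071). The interaction passed for TGFB2, higher by 0.38 (adjusted p = 0.0126), and TGFB1, at -0.27 (adjusted p = 0.0399).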

How the data were processed

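RNA-seq of MDA-MB-231 cells was read from 1 deposited table of 8 libraries in 4 groups of 2. Per the submitters' processing notes, reads passed through bcl2fastq 2.17, FastQC 0.11.2, TopHat, Picard 1.127, featureCounts and edgeR, with build hg19; annotation and strand setting: not given in the sources used here. Overlapping and antisense genes therefore cannot be told apart. The deposited signal is named FPKM, but within each library every value is a whole multiple of 1 step (100% of values within 0.01 reads), so the authors' values are reads divided by 1 factor per library, without gene length; they are called normalised read counts here. Dividing by that step gave back the reads. Depth was 24947627 to 31903585 reads, and bounds from a floor of 3 reads cover counting error only.

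Differences were tested in limma (version 3.58.1, R version 4.3.3) on log2(value + 0.5), with 4 group means and a variance trend, two-sided, over the 12645 genes with a mean of at least 1 and adjusted by Benjamini-Hochberg at 0.05. The fitted model has 4 residual degrees of freedom and 13.9 prior ones. It was tested on simulated data. Alternatives were pseudocounts of 0.1 and 1, no filter, a mean of at least 5, quantile and TMM normalization, no variance trend, only the groups compared, each library left out, a replicate block, edgeR 4.0.16 quasi-likelihood and DESeq2 1.42.0 on the recovered reads, and centring on the 40 neighbouring tested genes, taken in RefSeq order (20 on each side, fewer at a chromosome end). A centring on the deviations of those neighbours from their own means was added after seeing the data. All tested collagen chain genes are named, with the 5 highest below the filter, up to 3 members of each pathway list by smallest p in each comparison, and CHD4. The members are set by symbol alone; that gene family, its classes and the lists were chosen with earlier results of these data known. Symbols changed into dates in 27 rows match no gene and stay unnamed.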

Additional observations from a re-analysis of the deposited data

Results flagged for a closer look

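The interaction of label and O2 in limma, adjusted over all tested genes, passed for 3 of the 19 tested collagen chain genes in the main setting, against 4.36% of all tested genes. COL17A1, the collagen of hemidesmosomes, had an interaction of -0.5694 on the log2 scale (adjusted p = 0.00487), with a rise of 0.32 in shCHD4-labelled and 0.89 in shSC-labelled cells. COL27A1 had -0.8135 (adjusted p = 0.0197), with -0.21 in shCHD4-labelled cells, where it did not pass, and 0.60 in shSC-labelled cells. It passed the limit on low values only through the shSC-labelled libraries and held 11 to 20 reads per shCHD4-labelled library. The COL27A1 interaction kept its call in 12 of 20 alternative settings, and lost it with edgeR and DESeq2 on the recovered reads. COL5A1, which starts collagen fibrils, had -0.2451 (adjusted p = 0.0492), with 0.56 in shCHD4-labelled and 0.81 in shSC-labelled cells. Its interaction kept its call in only 8 of 20 alternative settings. The 1% and 20% O2 libraries did not overlap wherever one of these responses was called. The same held for all 9 collagen calls under shSC and all 7 under shCHD4, so it is not particular to these genes. The share over all tested genes is not given here.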

How the results depend on the processing

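The counts of collagen chain genes called were 7 at 1% against 20% O2 under shCHD4, 9 under shSC, 18 between labels at 1% O2, 15 at 20% O2 and 3 for the interaction. edgeR and DESeq2 on the recovered reads gave 7, 9, 18 and 15 in the first 4, and 3 and 2 for the interaction. COL27A1 was not among the interaction calls of either, and in edgeR COL15A1 passed in its place. Centring on the levels of neighbouring genes gave 4 for O2 under shCHD4; the cause was not tested. For the interaction, no variance trend gave 1, and leaving out a library gave 1 to 4. With the same library rule the other counts were 5 to 7 (O2 under shCHD4), 8 to 10 (O2 under shSC), 17 to 18 (labels at 1% O2) and 15 to 17 (labels at 20% O2); a library left alone in its group was assumed to vary like the other groups. Centred on neighbouring levels, COL4A1 between labels at 1% O2 reversed to -0.15 (adjusted p = 0.025), and CHD4 at 1% against 20% O2 under shCHD4 went to 0.23 (adjusted p = 0.00804). Centred on neighbours' deviations, the label differences of COL4A1 reversed to -0.23 at 1% and -0.13 at 20% O2. The label difference of COL4A2 at 1% O2 changed sign to -0.039 and did not pass. Both centrings subtract the neighbours by construction. Without the filter on low values 4 of 94 gene results no longer passed, without the variance trend 5, and with TMM none. The replicate block gave 7, 9, 18, 17 and 2 calls. Same-numbered libraries correlated at -0.12 to 0.12 in their deviations, and the labels do not say whether they share a culture or a batch. Read depth limits COL27A1 and COL6A2 in shCHD4-labelled cells, with 11 to 20 and 21 to 41 reads per library.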
